A study of Homo sapiens with 6 samples.

Results

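The genes described here are the p160 steroid receptor coactivator NCOA3, its paralogs NCOA1 and NCOA2, and 4 enzymes that p160 proteins bring to chromatin: the acetyltransferases CREBBP and EP300 and the arginine methyltransferases CARM1 and PRMT1. They were taken by symbol from a table of 20111 genes, all 7 were found, and all 7 were among the 11699 genes that passed a filter on low values (at least 1 FPKM in at least 2 libraries). FPKM are fragments counted per kilobase of transcript, relative to all fragments of the library. The cells were MDA-MB-231, an established human breast cancer line that the labels give as triple negative, and their mRNA was sequenced after transfection with siNCOA3, siSHC1 or siControl, and cells were collected at 48 h or 24 h. SHC1 encodes an adaptor of receptor tyrosine kinases. All 6 libraries come from transfected cells of this line, with 1 library for each of the 3 siRNAs at each of the 2 times, so that the libraries of both times were taken as replicates of their siRNA (n = 2 libraries). Separate cultures are not named in the labels, nor is it stated whether an siRNA was a single sequence or a pool. The p-values measure no more than the spread among these 6 libraries that is left once siRNA and time are each accounted for. Part of it may be technical and part an siRNA effect that differs between the times. The estimate of this spread for a gene also draws on all other tested genes.

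Total FPKM per library ran from 495518 to 553073, and depth, read from the spacing of low values, was about 19.03 to 26.9 M fragments. The 5 markers of a mesenchymal breast line (VIM, CD44, AXL, CAV1 and MSN) summed to 2468 to 2514 scaled FPKM (deposited values divided by a factor for each library) in the siNCOA3 libraries, 2426 to 2597 in the siSHC1 libraries and 2403 to 2532 in the siControl libraries. Of the 6 luminal markers, PGR was listed at 0 in all libraries, and ESR1, FOXA1 and CDH1 stayed under 1 scaled FPKM. The other luminal markers, GATA3 and EPCAM, stood at 4.62 to 5.43 and 6.76 to 10.7 scaled FPKM. Among 4 measured markers of blood and endothelium, PTPRC, CD3E and VWF stayed under 1 scaled FPKM, while CD68, which is found in lysosomes of other cells too, stood between 44.0 and 61.7 scaled FPKM. The sums were 11.7 to 12.7, 11.8 to 16.3 and 12.4 to 12.5 for the luminal list and 57.3 to 61.8, 44.1 to 46.4 and 51.6 to 58.5 for the blood and endothelium list, in the siNCOA3, siSHC1 and siControl libraries. Between siSHC1 and siNCOA3, limma called CAV1 (476 and 470 scaled FPKM in the siSHC1 libraries, against 386 and 365 in the siNCOA3 libraries, adjusted p = 0.0212) and CD68 (44.0 and 46.3, against 57.3 and 61.7, adjusted p = 0.0499). CAV1 stood at 469 and 436 in the siControl libraries, above both siNCOA3 libraries, and did not pass in that comparison (limma adjusted p = 0.269). The part of these levels in the results was not tested. SHC1 stood at 14.5 and 15.4 scaled FPKM in the siSHC1 libraries, against 116 and 108 in the siControl libraries.

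The p160 proteins bind ligand-activated nuclear receptors through short leucine-rich motifs and carry activation domains that recruit CREBBP or EP300, which acetylate histones, and CARM1 or PRMT1, which methylate arginines of histones and of other coactivators. NCOA3, also called AIB1 or SRC-3, is amplified in some breast cancers and also acts with transcription factors other than nuclear receptors, among them E2F1 and AP-1. The p160 genes overlap in function in mouse knockouts, so loss of NCOA3 raises the question whether transcripts of its paralogs or partners move in the other direction.

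Stretches of transcript that NCOA3 shares with the other genes are shown first, because an siRNA acts mainly on transcripts that match it along its length, taken here as 19 bases. In the longest coding transcripts of GENCODE (release 29, GRCh38), the NCOA3 transcript of 7939 bases held 7898 different words of 19 bases. None of them occurred in the transcripts of NCOA1, NCOA2, EP300, CARM1 or PRMT1, and 14 occurred in that of CREBBP. Of 19668 other coding genes, 4.93% shared at least 1 such word. The target sites of the siRNAs were not analysed here, as the labels hold no siRNA sequence. The longest run shared by NCOA3 and NCOA1 had 13 bases, at bases 1464 to 1476 of the NCOA3 coding sequence and 1741 to 1753 of that of NCOA1. It is given in capitals with 20 bases on either side.
NCOA3 (chromosome 20): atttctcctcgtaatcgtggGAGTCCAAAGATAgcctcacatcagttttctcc
NCOA1 (chromosome 2): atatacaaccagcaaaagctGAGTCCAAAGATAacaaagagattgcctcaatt
With NCOA2 the longest shared run had 15 bases, with EP300 16, with CARM1 12 and with PRMT1 10. The longest run shared with CREBBP had 27 bases and lay in a stretch of CAG and CAA triplets in both genes, at bases 3735 to 3761 of the NCOA3 coding sequence and 6594 to 6620 of that of CREBBP.
NCOA3 (chromosome 20): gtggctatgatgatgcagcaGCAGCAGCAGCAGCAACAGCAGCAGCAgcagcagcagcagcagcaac
CREBBP (chromosome 16): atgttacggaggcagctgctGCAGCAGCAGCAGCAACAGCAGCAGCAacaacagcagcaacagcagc
No stretch of 19 bases was thus shared between these transcripts of NCOA3 and either paralog. Other transcripts of these genes and the opposite strand were not searched. Effects of an siRNA through shorter matches were not analysed.

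NCOA3 stood at 1.83 scaled FPKM at 48 h and 1.68 at 24 h in the siNCOA3 libraries, at 12.4 and 12.5 in the siSHC1 libraries, and at 11.1 and 10.9 in the siControl libraries. All levels given from here on are scaled FPKM. Both siNCOA3 libraries lay far below the other 4, at 16.4% and 15.4% of the siControl library of the same time. At the implied depth and the length of the annotated transcript, these levels correspond to about 344 and 319 fragments, or a counting error of 5.39% and 5.60%. The fitted decrease of NCOA3 had a log2 difference of -2.12 ± 0.10 on scaled FPKM plus 1 (standard error, 2 libraries of each siRNA, limma adjusted p = 0.00111). The added 1 makes it smaller in size than the percentages of siControl imply. Over the alternatives it ran from -2.58 to -2.09. The call was lost in 1 alternative, that with no filter on low values (limma adjusted p = 0.136). In bulk RNA, a lower level in every cell and a loss in a part of the cells cannot be told apart.

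**Figure D1:**
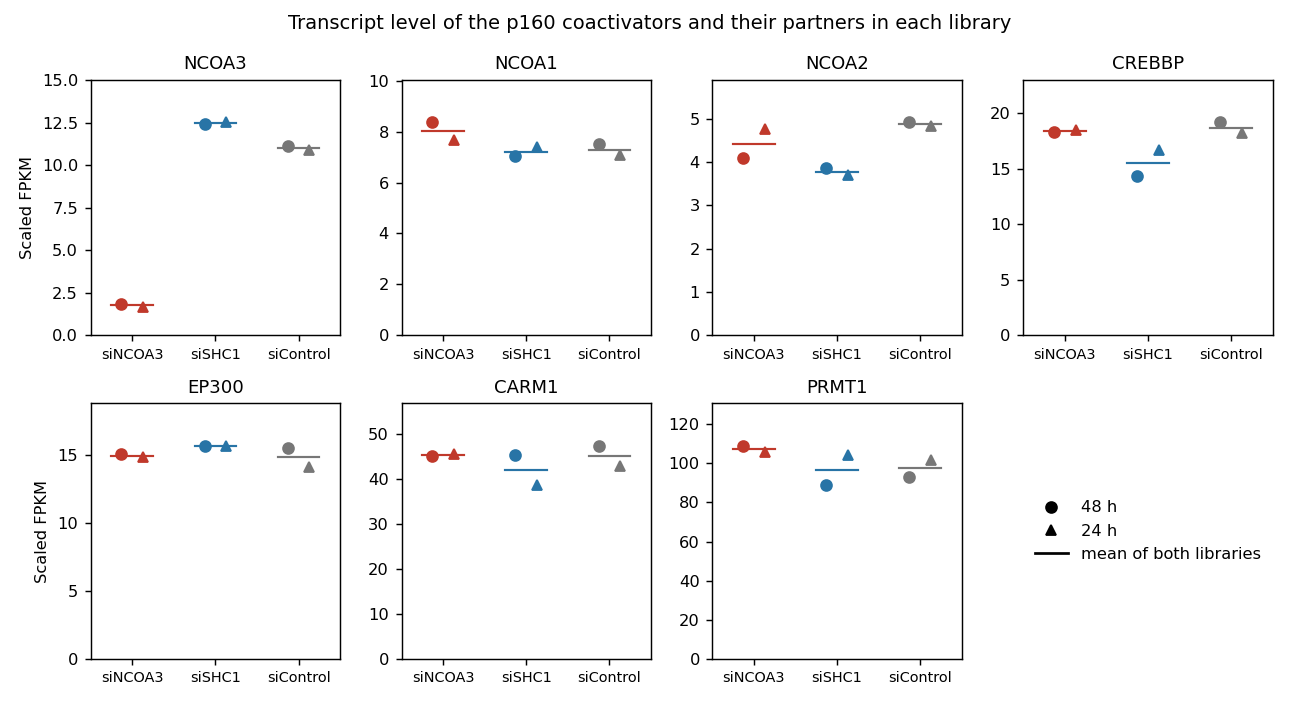
Scaled FPKM (y axis, linear, from 0) of each of the 7 genes in each library, by siRNA; circles are 48 h, triangles 24 h and bars the mean of both libraries. NCOA3 lies at 1.68 to 1.83 in the siNCOA3 libraries and at 10.9 or above in the others, while no other gene shows a gap of that size.

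NCOA1 (SRC-1), the first p160 coactivator to be described, stood at 8.37 and 7.67 scaled FPKM at 48 h and 24 h in the siNCOA3 libraries, at 7.03 and 7.41 in the siSHC1 libraries and at 7.51 and 7.07 in the siControl libraries. Both siNCOA3 libraries lay above both siControl libraries, at 111% and 109% of the siControl library of the same time. The fitted difference of siNCOA3 from siControl was 0.12 ± 0.11 on the log2 scale, with a 95% confidence interval from -0.13 to 0.37, and it did not pass (limma adjusted p = 0.736).

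NCOA2 (SRC-2, also called TIF2 or GRIP1) is best known as a coactivator of the glucocorticoid receptor and lies on chromosome 8. It stood at 4.09 and 4.76 scaled FPKM at 48 h and 24 h in the siNCOA3 libraries, at 3.85 and 3.69 in the siSHC1 libraries and at 4.92 and 4.84 in the siControl libraries. Both siNCOA3 libraries lay below both siControl libraries, the 48 h library at 83.1% and the 24 h library at 98.3% of its siControl. The fitted difference was -0.12 ± 0.12 (interval -0.41 to 0.17) and did not pass (limma adjusted p = 0.781).

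The summed p160 transcript level stayed well below that of siControl after siNCOA3. FPKM are per length, so the 3 p160 transcripts can be added. Their summed level was 14.3 and 14.1 scaled FPKM at 48 h and 24 h in the siNCOA3 libraries, 23.3 and 23.6 in the siSHC1 libraries and 23.6 and 22.8 in the siControl libraries. The siNCOA3 sum was 60.6% and 61.9% of the siControl sum of the same time, with a mean of 61.3%. NCOA3 made up 12.8% and 11.9% of the sum in the siNCOA3 libraries, 53.3% and 53.0% in the siSHC1 libraries and 47.2% and 47.8% in the siControl libraries. NCOA1 held the largest share in the siNCOA3 libraries, 58.6% and 54.4%, against 31.9% and 31.0% in the siControl libraries. As NCOA3 held 47.2% and 47.8% of the siControl sum, its loss alone lowers the sum and raises the NCOA1 share. At 48 h NCOA3 fell by 9.30 scaled FPKM while NCOA1 and NCOA2 together were 0.0207 higher, which is 0.222% of the loss. At 24 h NCOA3 fell by 9.20 and the paralogs together were 0.524 higher, which is 5.69% of the loss. With NCOA1 and NCOA2 each at the upper end of its 95% interval, the gain would be 2.45 and 0.730 scaled FPKM, together 34.4% of the mean NCOA3 loss of 9.25. The sum is a description of these libraries and was given no test.

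**Figure D2:**
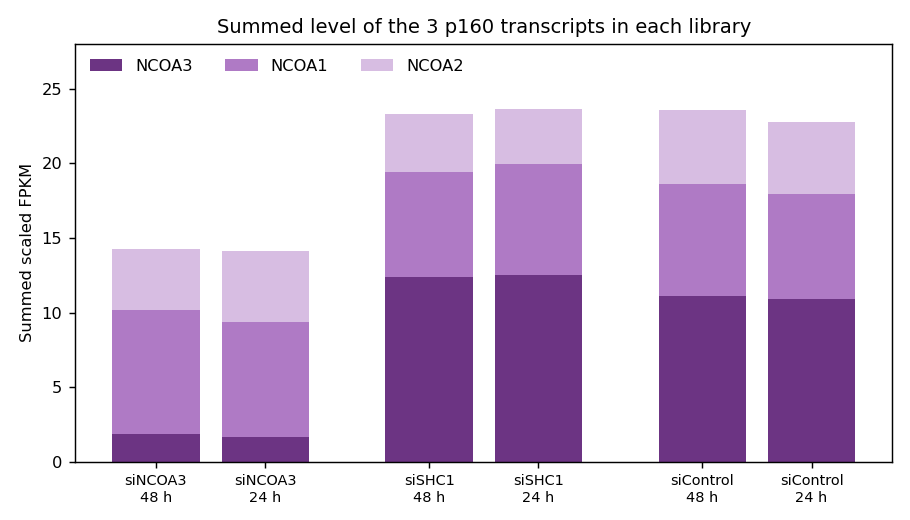
Summed scaled FPKM (y axis, from 0) of NCOA3, NCOA1 and NCOA2 in each library, by siRNA and time, stacked by gene. The siNCOA3 columns reach 14.3 and 14.1 and the siControl columns 23.6 and 22.8, and the NCOA1 and NCOA2 segments of the siNCOA3 columns sum to 12.5 and 12.4.

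CREBBP (CBP) and EP300 (p300) are paralogous acetyltransferases that bind the activation domains of the p160 proteins and of many transcription factors. CREBBP stood at 18.3 and 18.5 scaled FPKM at 48 h and 24 h in the siNCOA3 libraries and at 19.2 and 18.2 in the siControl libraries. EP300 stood at 15.1 and 14.8 in the siNCOA3 libraries and at 15.6 and 14.2 in the siControl libraries. For both genes the siNCOA3 values fell within the range of the siControl values. The fitted differences were -0.020 ± 0.10 for CREBBP (interval -0.26 to 0.22, limma adjusted p = 0.963) and 0.012 ± 0.092 for EP300 (interval -0.21 to 0.23, limma adjusted p = 0.977). Their summed level was 33.4 in each siNCOA3 library, against 34.7 and 32.3 in the siControl libraries.

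CARM1 (PRMT4) methylates histone H3 and CREBBP, and PRMT1 methylates histone H4 and is the main arginine methyltransferase of most cells. CARM1 stood at 45.1 and 45.5 scaled FPKM at 48 h and 24 h in the siNCOA3 libraries and at 47.4 and 42.9 in the siControl libraries, so the siNCOA3 values lay between the siControl values. Its fitted difference was 0.0067 ± 0.090 (interval -0.21 to 0.22, limma adjusted p = 0.986). In the annotation 19.9% of the CARM1 exon bases overlap YIPF2 on the other strand, and no source used here states whether strand was used in counting, so reads of the 2 genes may not be told apart. PRMT1 stood at 109 and 106 in the siNCOA3 libraries and at 93.2 and 102 in the siControl libraries, at 117% and 104% of the siControl of the same time. Both siNCOA3 libraries lay above both siControl libraries, yet the fitted difference of 0.14 ± 0.087 did not pass (interval -0.067 to 0.34, limma adjusted p = 0.637). Of the PRMT1 exon bases, 7.63% overlap the coding gene ADM5 on the same strand, where strand cannot tell the reads apart.

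NCOA3 itself was the 1 gene of the 7 that passed the limma test after siNCOA3, at a Benjamini-Hochberg adjusted p under 0.05, and 0 of the other 6 had an unadjusted p under 0.05. Among all tested genes 0.111% were called, all of them lower, and 10.5% had an unadjusted p under 0.05. Without regard to the test, NCOA1 and PRMT1 lay higher with no overlap between the siNCOA3 and siControl libraries, as did 20.6% of all tested genes. NCOA3 and NCOA2 lay lower with no overlap, as did 18.9% of all tested genes. The 6 genes other than NCOA3 had a median absolute difference of 0.070 on the log2 scale, beside 0.10 over all tested genes.

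**Figure D3:**
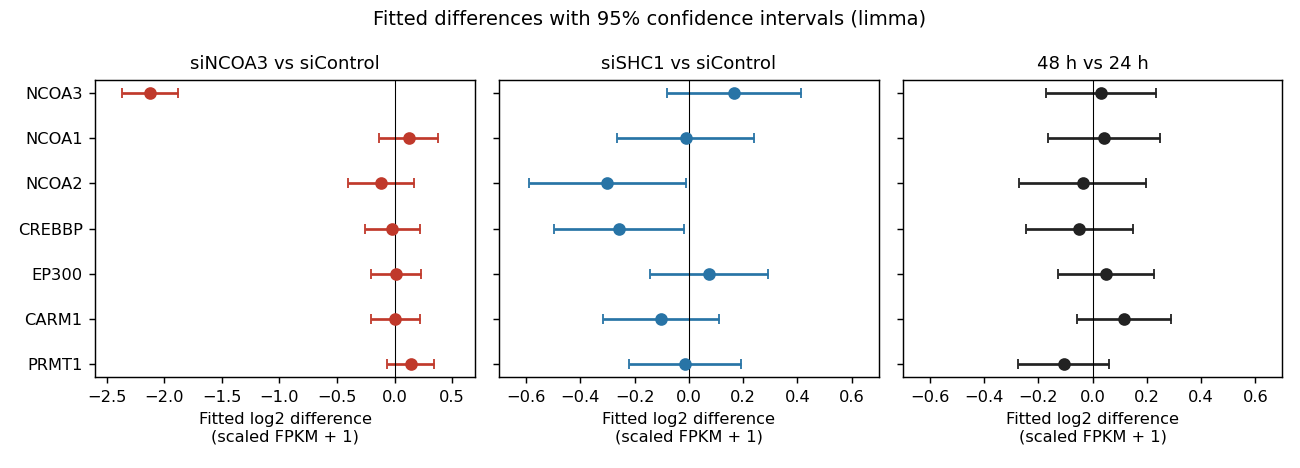
Fitted log2 difference (x axis, on scaled FPKM plus 1) with its 95% confidence interval for each of the 7 genes in 3 comparisons; the first panel has a wider x axis. After siNCOA3 only the interval of NCOA3, at -2.12, lies away from 0, and after siSHC1 those of NCOA2 and CREBBP end just below 0.

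After siSHC1 none of the 7 genes passed the test. NCOA2 and CREBBP had the largest differences, both lower. NCOA3 was higher in both siSHC1 libraries than in both siControl libraries, at 111% and 115% of the siControl of the same time at 48 h and 24 h, and its fitted difference was 0.17 ± 0.10 (interval -0.081 to 0.41, limma adjusted p = 0.362). NCOA2 was lower in both siSHC1 libraries, at 78.4% and 76.4%, with a fitted difference of -0.30 ± 0.12 (interval -0.59 to -0.012, limma adjusted p = 0.176). NCOA2 thus lay lower by a like share at both times, whereas CREBBP was at 74.7% at 48 h and 91.7% at 24 h.

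CREBBP stood at 14.3 and 16.7 scaled FPKM in the siSHC1 libraries, against 19.2 and 18.2 in the siControl libraries, and EP300 at 15.7 in each siSHC1 library, against 15.6 and 14.2 in the siControl libraries. The ratio of CREBBP to EP300 was 0.915 at 48 h and 1.06 at 24 h in the siSHC1 libraries, against 1.23 and 1.28 in the siControl libraries. The fitted difference of CREBBP was -0.26 ± 0.10 (interval -0.50 to -0.016, limma adjusted p = 0.168) and that of EP300 was 0.074 ± 0.092 (interval -0.14 to 0.29, limma adjusted p = 0.654). NCOA1 (-0.012 ± 0.11), CARM1 (-0.10 ± 0.090) and PRMT1 (-0.015 ± 0.087) had siSHC1 values that overlapped those of siControl, at 7.03 to 7.41, 38.8 to 45.3 and 88.9 to 104 scaled FPKM in the siSHC1 libraries.

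The count after siSHC1 was 0 of 7 by limma, beside 6.50% of all tested genes (3.15% higher and 3.36% lower), and 2 of the 7, NCOA2 and CREBBP, had an unadjusted p under 0.05, beside 26.2% of all tested genes. NCOA3 and EP300 lay higher with no overlap between the siSHC1 and siControl libraries, as did 24.3% of all tested genes, and NCOA2 and CREBBP lay lower, as did 23.6%. The direct comparison of siSHC1 with siNCOA3 called 1 of the 7 genes, NCOA3, which was 2.29 ± 0.10 higher in the siSHC1 libraries (limma adjusted p = 3.33e-04), beside 9.94% of all tested genes (5.35% higher and 4.59% lower). In that comparison NCOA1 had a difference of -0.13 ± 0.11, NCOA2 -0.18 ± 0.12, CREBBP -0.24 ± 0.10 and PRMT1 -0.15 ± 0.087, none of which passed. The effects of the siRNAs on NCOA1, NCOA2 and CREBBP were therefore not shown to differ from each other, and both comparisons with siControl share its libraries.

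Between 48 h and 24 h none of the 7 genes passed the test, beside 0.0256% of all tested genes (0.0171% higher and 0.00855% lower), and 0 of the 7 had an unadjusted p under 0.05 (limma). The fitted differences of 48 h from 24 h lay between -0.11 ± 0.071 for PRMT1 and 0.12 ± 0.073 for CARM1, with NCOA3 at 0.031 ± 0.085. Each of the 7 genes was higher at 48 h under at least 1 siRNA and lower under at least 1 other. The share of all tested genes with such mixed directions was not computed. CARM1 was higher at 48 h after siSHC1 (45.3 against 38.8 scaled FPKM) and in siControl (47.4 against 42.9), but lower after siNCOA3 (45.1 against 45.5). PRMT1 was lower at 48 h after siSHC1 (88.9 against 104) and in siControl (93.2 against 102), and higher after siNCOA3 (109 against 106).

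By level per length, PRMT1 came first and CARM1 next in all 6 libraries. In the siControl libraries the order went on with CREBBP, EP300, NCOA3, NCOA1 and NCOA2, and neighbours in this order did not overlap between their 2 libraries. The mean level there was 97.5 ± 6.17 scaled FPKM for PRMT1, 45.1 ± 3.18 for CARM1, 18.7 ± 0.713 for CREBBP and 14.9 ± 0.989 for EP300. Among the p160 genes it was 11.01 ± 0.177 for NCOA3, 7.29 ± 0.315 for NCOA1 and 4.88 ± 0.0579 for NCOA2 (SD, n = 2). In the siNCOA3 libraries NCOA3 moved to the last place, below NCOA2 at 4.42 ± 0.474. In the siSHC1 libraries EP300 (15.7 ± 0.0191) and CREBBP (15.5 ± 1.64) overlapped, and EP300 came before CREBBP at 48 h.

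Genes around the p160 proteins were taken from 7 lists. After siNCOA3 limma called 0 of their 78 tested genes, and 9 of them (11.5%) had an unadjusted p under 0.05, beside 10.5% of all tested genes. The 9 other acetyltransferases had a median of 0.024 (0 with an unadjusted p under 0.05), and their largest values were 0.20 ± 0.10 for TAF1, a subunit of TFIID, and -0.12 ± 0.11 for KAT8, which acetylates histone H4. The 7 tested other PRMT genes, with the PRMT5 partner WDR77, had a median of 0.12 with 6 above 0 (1 with an unadjusted p under 0.05). WDR77 stood at 0.25 ± 0.095 (limma adjusted p = 0.426) and PRMT7 at 0.16 ± 0.11. The 11 tested p160-associated coactivators had a median of 0.034 (3 with an unadjusted p under 0.05), with CITED2, a binding partner of CREBBP and EP300, at 0.33 ± 0.12 (limma adjusted p = 0.401) and the RNA helicase DDX17 at -0.32 ± 0.086 (limma adjusted p = 0.329). The 8 corepressors had a median of -0.034 (0 with an unadjusted p under 0.05), with LCOR, a ligand-dependent corepressor, at 0.15 ± 0.12. Over all tested genes the median was 0.0029.

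PSME3, the proteasome activator known to promote breakdown of NCOA3 protein, had the largest difference after siNCOA3 among the 13 genes of NCOA3 turnover and modification. It stood at 84.8 and 88.4 scaled FPKM at 48 h and 24 h in the siNCOA3 libraries, at 115 and 132 in the siSHC1 libraries and at 115 and 139 in the siControl libraries. Both siNCOA3 libraries lay below the other 4. Its fitted difference of siNCOA3 from siControl was -0.54 ± 0.080 and did not pass (limma adjusted p = 0.118), while siSHC1 against siNCOA3 was called, with 0.51 ± 0.080 (limma adjusted p = 0.0157). The ubiquitin ligase UBE3A stood at -0.18 ± 0.10. The median of the 13 genes was -0.031, with 10 below 0 and 1 with an unadjusted p under 0.05.

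Of 19 genes reported elsewhere to depend on NCOA3, 11 were tested. The growth factor IGF1 and the chemokine CXCL12 were among the 8 under the filter, with SNAI1 and the matrix metalloproteinases MMP2, MMP7, MMP9, MMP10 and MMP13. The 11 tested genes had a median of 0.14 after siNCOA3, beside 0.0029 over all tested genes, with 8 above 0 and 3 below. Of the 11, 2 had an unadjusted p under 0.05 (limma), beside 10.5% of all tested genes. These 11 thus did not lie lower as a group, and the 8 under the filter were not assessed. CCNE1, which encodes cyclin E1, stood at 12.6 and 13.6 scaled FPKM in the siNCOA3 libraries, against 8.56 and 12.1 in the siControl libraries (0.33 ± 0.12, limma adjusted p = 0.411). MYC stood at 52.8 and 49.7, against 39.4 and 43.7 (0.30 ± 0.089, limma adjusted p = 0.364). The 19 tested transcription factors that p160 proteins act with had a median of -0.044 (2 with an unadjusted p under 0.05), with FOS at -0.54 ± 0.23 at a low level and the orphan receptor ESRRA at 0.35 ± 0.10.

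**Figure D4:**
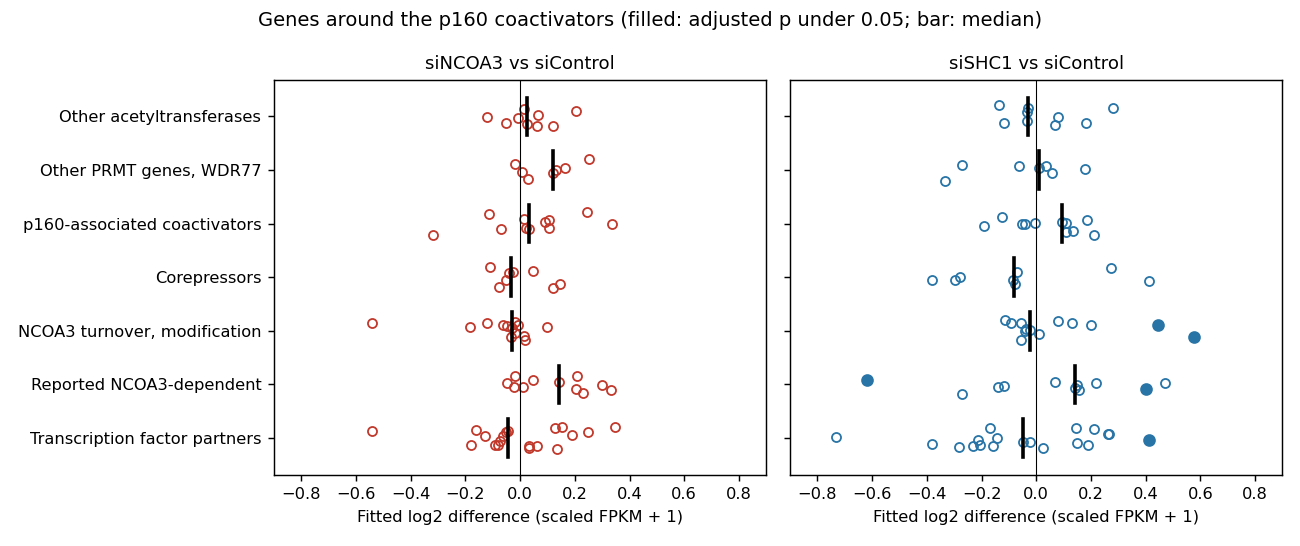
Fitted log2 difference (x axis, on scaled FPKM plus 1) of each tested gene of the 7 lists, after siNCOA3 (left) and siSHC1 (right) against siControl; filled points passed the test and black bars are list medians. No point is filled after siNCOA3, and 5 are filled after siSHC1.

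After siSHC1 limma called 5 of the 78 tested genes of these lists (6.41%), close to the 6.50% of all tested genes, and 4 of them are described. The epidermal growth factor receptor EGFR fell by 0.62 ± 0.089 on the log2 scale (limma adjusted p = 0.0159), at 28.6 and 32.5 scaled FPKM in the siSHC1 libraries, against 43.4 and 51.8 in the siControl libraries. The atypical protein kinase C gene PRKCZ rose by 0.57 ± 0.13 (limma adjusted p = 0.0480), the insulin receptor substrate IRS1 by 0.40 ± 0.089 (limma adjusted p = 0.0474) and the retinoic acid receptor RARA by 0.41 ± 0.090 (limma adjusted p = 0.0455). The calls of PRKCZ, IRS1 and RARA were each lost when any 1 of the 6 libraries was left out, and that of EGFR when any siSHC1 or siControl library was. Over all 14 alternatives the calls held in 8 for EGFR, 3 for PRKCZ, 2 for IRS1 and 3 for RARA. In all, 18 of the 78 tested genes (23.1%) had an unadjusted p under 0.05 (limma), beside 26.2% of all tested genes. No acetyltransferase, arginine methyltransferase, corepressor or p160-associated coactivator of the lists was called. Of their tested genes, 0 of 9, 1 of 7, 4 of 8 and 0 of 11 had an unadjusted p under 0.05. PRMT5 (-0.33 ± 0.082, limma adjusted p = 0.0615), KAT2B (0.28 ± 0.13), TBL1X (-0.38 ± 0.10), LCOR (0.41 ± 0.12), CITED2 (0.21 ± 0.12) and TRIM24 (-0.19 ± 0.095) were among the largest differences of these lists. PRMT5 passed in 4 of 14 alternatives (limma adjusted p down to 0.0405). FOS stood at 0.794 and 1.78 scaled FPKM in the siSHC1 libraries, against 2.80 and 2.62 in the siControl libraries, and did not pass (-0.73 ± 0.23, limma adjusted p = 0.104).

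Between siSHC1 and siNCOA3, limma called 9 of the 78 list genes (11.5%), near the 9.94% of all tested genes, and 8 of them are described. PRMT5, the main symmetric arginine methyltransferase, stood at 101 and 105 scaled FPKM in the siSHC1 libraries, against 128 and 158 in the siNCOA3 libraries (-0.47 ± 0.082, limma adjusted p = 0.0201). EGFR stood at 28.6 and 32.5, against 51.9 and 52.9 (-0.76 ± 0.089, limma adjusted p = 0.00651), and CCNE1 at 7.005 and 9.71, against 12.6 and 13.6 (-0.60 ± 0.12, limma adjusted p = 0.0279). The receptors ESRRA (-0.58 ± 0.10) and PPARG (-0.44 ± 0.11) were lower in the siSHC1 libraries. PSME3, PRKCZ (0.56 ± 0.13) and the aryl hydrocarbon receptor AHR (0.39 ± 0.084) were higher. The EGFR call was lost without the siNCOA3 library of 48 h, and those of CCNE1 and ESRRA without that library or either siSHC1 library. The calls of PSME3 and PRMT5 were lost without any siNCOA3 or siSHC1 library, that of PPARG without any library but siNCOA3 at 24 h, and those of AHR and PRKCZ without any 1 library. Over all 14 alternatives the calls held in 12 (EGFR), 10 (ESRRA), 9 (CCNE1), 8 (PSME3), 7 (PRMT5), 5 (PPARG), 4 (PRKCZ) and 3 (AHR). Between 48 h and 24 h limma called 0 of the 78 list genes, and 11 (14.1%) had an unadjusted p under 0.05, as did 14.1% of all tested genes. CALCOCO1 (0.37 ± 0.097), a p160-binding coactivator, and CDC25A (-0.42 ± 0.13), a cell cycle phosphatase, had the largest differences.

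The genes whose level followed that of NCOA3 most closely over the 6 libraries were ranked among 2734 genes whose mean reached 5 FPKM and whose log2 range reached 0.5. The highest Pearson correlations were those of ETNK1 (0.999), ASAP1 (0.997), MDC1 (0.997), RRBP1 (0.996) and RPN2 (0.994), n = 6 libraries. The 2 siNCOA3 libraries lie apart from the other 4 in NCOA3, so these values mainly describe a gap between them. Genes at either end were picked on these same libraries, so their lower or higher siNCOA3 levels follow from the choice. The fits given for them are a description. MDC1, a DNA damage mediator, stood at 9.49 and 9.39 scaled FPKM in the siNCOA3 libraries, 18.5 and 18.4 in the siSHC1 libraries and 17.3 and 16.5 in the siControl libraries. Its difference of -0.78 ± 0.090 from siControl did not pass (limma adjusted p = 0.0503), though it passed in 3 of 14 alternatives (limma adjusted p down to 0.0352). RPN2, a subunit of the oligosaccharyltransferase, stood at 56.7 and 58.7 in the siNCOA3 libraries, 325 and 277 in the siSHC1 libraries and 267 and 225 in the siControl libraries, and it fell by 2.07 ± 0.090 (limma adjusted p = 9.90e-04). RRBP1, which binds ribosomes at the endoplasmic reticulum, fell by 1.02 ± 0.071 (limma adjusted p = 0.00584). The RRBP1 call was lost in 5 of 14 alternatives (limma adjusted p up to 0.204), among them those without either siControl library or without the siNCOA3 library of 48 h, and the RPN2 call in 1 of 14, with no filter on low values (limma adjusted p = 0.162). ETNK1 (-0.57 ± 0.11) and ASAP1 (-0.56 ± 0.078) were lower in both siNCOA3 libraries but did not pass the threshold. The lowest correlations were those of TRMT11 (-0.984), AC079354.2 (-0.924), RNF4 (-0.916), JARID2 (-0.905) and APOC1 (-0.903). TRMT11, a tRNA methyltransferase subunit, stood at 16.0 and 15.5 in the siNCOA3 libraries, against 10.1 and 10.5 in the siControl libraries, a difference of 0.57 ± 0.094 that did not pass (limma adjusted p = 0.160). Among the 6 genes set beside NCOA3, the correlation ran from -0.796 for NCOA1 to 0.282 for EP300. These 6 genes were not held to the log2 range of 0.5, and NCOA1 lay only between 7.03 and 8.37 scaled FPKM. How common such correlations are among all tested genes was not computed.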

How the data were processed

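Trizol extraction and a stranded mRNA kit are given, per the labels' protocols. Per the submitters' processing notes, STAR, Cufflinks, DESeq2 and hg19 are named, with no roles or versions. Although its name speaks of read counts, the table the authors deposited holds FPKM: values are not whole and their low steps vary with gene length. All 6 sample columns were used. The genes and lists were chosen with earlier results of these data known.

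FPKM were scaled by the median of ratios over 13878 genes above 0 in all libraries. Genes reaching 1 FPKM in 2 or more libraries were tested on log2(scaled FPKM + 1), pseudocount 1, with limma 3.58.1 in R 4.3.3 (trend and robust moderation), with additive terms for siRNA and time over 6 libraries (2 residual degrees of freedom) and Benjamini-Hochberg adjustment over 11699 genes, threshold 0.05. The log2 differences understate changes of low genes. The time term pairs the libraries: their differences of 48 h from 24 h correlated at 0.169, 0.389 and 0.161 between siRNAs. Depth was read from genes under 0.1 FPKM with 1 annotated transcript, and is approximate; intervals of fragments cover counting error only. Named genes are all 7 genes, of each list up to 4 called genes or else the 2 with the largest difference, and 5 at either end of the correlation with NCOA3. List symbols were matched through a RefSeq table of synonyms (PRMT9 as PRMT10); PECAM1 was not matched. Some list genes that the rule names are not reported here. Alternatives covered scaling, filter, pseudocount, moderation, the time term (the siRNA terms for the time comparison), the libraries in the fit and each library left out. Other tools were matplotlib 3.10.9, pandas 2.3.3, numpy 2.4.6 and Python 3.11.15.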

Additional observations from a re-analysis of the deposited data

Results flagged for a closer look

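In 5 cases an untargeted gene lay on one side of siControl at 48 h and on the other at 24 h. These were 3 of the 7 genes after siNCOA3 and 2 of the 7 after siSHC1. How common such opposite signs are among all tested genes was not computed. Each time has 1 library per siRNA, so these differences between times were not tested. After siNCOA3 the log2 difference from siControl was -0.066 at 48 h and 0.026 at 24 h for CREBBP, -0.040 and 0.064 for EP300, and -0.070 and 0.084 for CARM1. After siSHC1 it was -0.085 at 48 h and 0.060 at 24 h for NCOA1, and -0.066 and 0.036 for PRMT1.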

How the results depend on the processing

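The call of NCOA3 after siNCOA3 held under 13 of 14 alternatives, and without a filter on low values the count of called genes among the 7 became 0 (limma adjusted p = 0.136, range over alternatives 7.40e-04 to 0.136), where 1377 of all genes had an unadjusted p under 0.05. None of the other 6 genes passed in any comparison under any alternative. Leaving out each library kept the counts at 1 and 1 for siNCOA3 with siControl and siSHC1 with siNCOA3, at 0 for the others, and the summed p160 level between 60.5% and 62.1% of siControl. That sum was 63.3% without scaling and 60.1% with equal library totals. NCOA2 was not tested at a filter of 5 FPKM.

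Directions turned, for values that never passed, as follows. After siNCOA3, CARM1 was at -0.019 and EP300 at -0.013 with equal totals, and CREBBP at 0.023 without scaling. With a library left out, CARM1 ranged from -0.091 to 0.11 (-0.013 without siControl at 24 h, -0.091 without siNCOA3 at 24 h), CREBBP from -0.11 to 0.075 (0.0020 without siNCOA3 at 24 h, 0.075 without siControl at 48 h) and EP300 from -0.047 to 0.073 (-0.047 without siControl at 24 h, -0.0082 without siNCOA3 at 24 h). After siSHC1, NCOA1 was at 0.018 and PRMT1 at 0.020 without scaling, NCOA1 at 0.015 without siControl and 0.069 without siSHC1 at 48 h (range with a library left out -0.095 to 0.069), and PRMT1 at 0.079 without siSHC1 at 48 h (-0.11 to 0.079). For time, CREBBP was at 0.026 and 0.028 without siSHC1 at 48 h and 24 h (-0.11 to 0.028), and NCOA2 at 0.035 and 0.034 without siNCOA3 at 48 h and 24 h (-0.081 to 0.035). The cause was not tested. With a library left out after siNCOA3, NCOA1 ranged from 0.070 to 0.17, NCOA2 from -0.23 to -0.011 and PRMT1 from 0.032 to 0.25, lowest in size without siNCOA3 at 48 h and highest without siNCOA3 at 24 h.

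Counts over all genes moved more. For siNCOA3 with siControl 13 became 7 without scaling, 3 without trend and robust moderation, 0 without a filter and 2 to 16 with a library left out. For siSHC1 with siControl 761 became 2, 321 and 36 to 825, for siSHC1 with siNCOA3 1163 became 4, 740 and 156 to 869 (no filter, plain moderation, a library left out), and for time 3 became 0 without a filter and 0 to 56. With no replicate block (no time term) siSHC1 with siControl gave 225 and siSHC1 with siNCOA3 gave 452. The time comparison, fitted there without the siRNA terms, gave 1, and the counts among the 7 genes stayed at 1, 0, 1 and 0. With equal totals siSHC1 with siControl gave 211 higher and 501 lower, against 368 and 393. With equal totals siSHC1 with siNCOA3 gave 512 higher and 649 lower, against 626 and 537. With 2 libraries per siRNA, differences inside the 95% intervals (for NCOA1 after siNCOA3 from -0.13 to 0.37) remain compatible with these values. The intervals are not a limit of detection. Larger differences could also fail to pass, as PSME3 did after siNCOA3 at -0.54 ± 0.080 (limma adjusted p = 0.118).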
